A study of Mus musculus with 6 samples.

Results

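Liver sinusoidal endothelial cells line the capillaries of the liver. The genes described here are 10 markers of these cells, taken by symbol from a table of 24421 genes, and all 10 were present and passed the filter on low counts. They are the scavenger and uptake receptors Stab1, Stab2, Lyve1, Clec4g and Fcgr2b, the surface receptors and adhesion molecule Kdr, Gpr182 and Pecam1, and the secreted proteins Oit3 and Dnase1l3. The samples were livers of male C57BL/6 mice aged 4 months, 3 lacking functional Sesn3 by knockout (KO libraries) and 3 of wild type (WT libraries). Every mouse of both groups had eaten, for 4 weeks, a diet that gave 40% of its energy as fat, and to which cholesterol (1.25%) and a bile salt, sodium cholate (0.5%), had been added. The labels do not name separate animals, so every n given below counts libraries. No group on another diet was analysed here, and how the knockout was made is not given in the sources used here. Sesn3 encodes sestrin 3, a stress-inducible regulator of nutrient signalling.

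Sinusoidal endothelium differs from that of other vessels: its cells are perforated by open pores (fenestrae), lie on almost no basement membrane, and take up waste molecules, immune complexes and glycans from the blood. It also sends signals to neighbouring hepatocytes and stellate cells. When the liver is injured, these cells can lose their pores and gain a basement membrane, a change called capillarisation, and several sinusoidal receptors are then known to decline. The transcription factor Gata4 is known to specify this cell type in the mouse.

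The libraries summed to between 18882220 and 24098512 counts, and levels are given as CPM, counts scaled to a common library size after TMM scaling. Sesn3 was between 0.689 and 0.761 CPM in the KO libraries and averaged 10.3 CPM in the WT libraries. Counts of the 10 markers ran from 154 to 2401 per library. At the smallest of these, 154 counts of Lyve1 in WT replicate 2, the 95% Poisson interval was 131 to 180, which covers counting error only. KO replicate 3 was low in the endothelial genes. In that library 9 of the 10 markers had their lowest level of the 6 libraries, against 10.6% of all tested genes, and their levels were between 33.9% and 60.6% of the mean of KO replicates 1 and 2 (median 45.7%). The median over all 12945 tested genes was 100.1% and that over 25 general endothelial genes was 47.3%. Medians were also low for lists of other cells, 58.8% over 3 neutrophil genes, 61.9% over 6 dendritic cell genes and 76.5% over 10 stellate cell genes, and 0, 2 and 1 of them had their lowest level of the 6 libraries there. That over 13 other sinusoidal genes was 64.6%, with 7 lowest there. Whether KO replicate 3 held fewer endothelial cells or less endothelial RNA per cell cannot be told apart in whole-liver RNA, and the same holds for every difference below. Values without that library are given for each of the 10 markers and for each list median below.

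**Figure D1:**
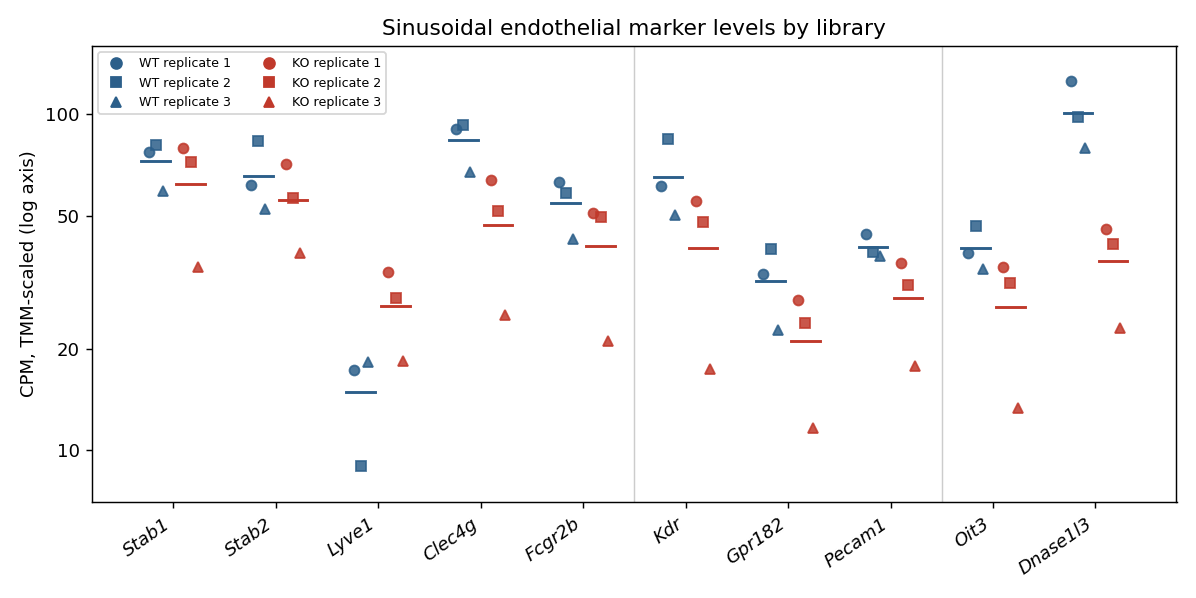
Level of each of the 10 markers in CPM after TMM scaling, on a log axis, with 1 point per library, WT in blue and KO in red, symbols for replicates and a bar at the mean of 3 libraries. Dnase1l3 is lower in every KO library, Lyve1 is higher in every KO library by a narrow margin, and KO replicate 3 (red triangles) is the lowest point for 9 of the 10 genes.

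Promoter sequence was at hand for 5 of the 10 markers (Stab1, Stab2, Clec4g, Fcgr2b and Kdr), in the RefSeq table for GRCm38.p6. The 2 shown here belong to a scavenger receptor whose level was near equal in the genotypes, Stab2, and to the lectin Clec4g, whose KO and WT libraries did not overlap. Each runs 5′ to 3′ on the minus strand, from 250 bases before the transcription start to 50 bases after it. Capitals mark the letters of GATA motifs (AGATAA, also with G as the last letter, T as the first letter, or both) and of ETS motifs (AGGAAG, also with A as the last letter, C as the first letter, or both) on either strand. The Stab2 window lies at chr10:87007893-87008192 and the Clec4g window at chr8:3720602-3720901.
Stab2: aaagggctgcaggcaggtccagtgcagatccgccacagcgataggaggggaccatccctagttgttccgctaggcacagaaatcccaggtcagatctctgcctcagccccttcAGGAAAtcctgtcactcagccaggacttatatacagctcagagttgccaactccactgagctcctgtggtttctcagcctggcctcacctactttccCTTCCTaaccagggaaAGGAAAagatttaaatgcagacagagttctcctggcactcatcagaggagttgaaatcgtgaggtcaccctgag
Clec4g: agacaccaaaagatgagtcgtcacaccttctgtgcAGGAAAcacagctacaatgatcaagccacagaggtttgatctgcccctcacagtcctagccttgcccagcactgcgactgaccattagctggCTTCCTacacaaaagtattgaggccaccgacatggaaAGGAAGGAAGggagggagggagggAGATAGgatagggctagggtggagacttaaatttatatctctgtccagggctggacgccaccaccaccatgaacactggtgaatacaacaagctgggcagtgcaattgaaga
The Stab2 window held 3 ETS matches and 0 GATA matches. The Clec4g window held 4 ETS matches, 2 of them overlapping each other, and 1 GATA match that began 62 bases before the start. GATA letters were in 2 of the 5 marker promoters (Clec4g and Fcgr2b) and in 30.2% of 27025 promoter windows of that length, and ETS letters were in all 5 and in 64.7% of the windows. These matches describe letters and show no binding.

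The comparison of KO with WT asks which of these markers differ between the genotypes on this diet. Dnase1l3 fell in KO and was the only one of the 10 to pass the test (edgeR quasi-likelihood test, Benjamini-Hochberg adjusted p under 0.05 over all 12945 genes). That is 1 lower and 0 higher of 10, where 6.94% of all tested genes passed and 3.58% passed as lower in KO. Lyve1 was the only marker with a positive log2 fold change. The median log2 fold change of the 10 was -0.54, against 0.00 over all tested genes, and 9 were negative. KO and WT libraries did not overlap for Dnase1l3, Clec4g and Pecam1, lower in KO, and Lyve1, higher in KO, 4 of 10 where 33.5% of all tested genes did not overlap (16.6% lower and 16.9% higher). Of the 10, 3 had an unadjusted p under 0.05, as had 25.8% of all tested genes. Without KO replicate 3 the median was -0.26, 8 were negative and 0 passed (1.99% of all genes passed in that fit). The summed level of the 10 was 499, 433 and 222 CPM in KO replicates 1 to 3 and 613, 632 and 464 CPM in WT replicates 1 to 3. KO replicates 1 and 2 thus lay on either side of the lowest WT library, and KO replicate 3 well below it.

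Among the secreted proteins, Dnase1l3 encodes an endonuclease that degrades DNA of dying cells in the circulation. It lies on chromosome 14 from 7964533 to 7994573 (mm10). Its level was 45.4, 41.3 and 23.1 CPM in KO replicates 1 to 3 and 126, 98.3 and 79.5 CPM in WT replicates 1 to 3. The lowest WT library was well above the highest KO library. The group values were 36.6 ± 11.9 CPM in KO and 101 ± 23.2 CPM in WT (SD, n = 3 each), a drop of 2.76-fold from WT to KO (edgeR adjusted p = 0.0288; the log2 fold change was -1.47 with an SE of 0.28). The call depended on which libraries entered the fit. It was lost without KO replicate 1, 2 or 3 or WT replicate 3 (edgeR adjusted p of 0.0666, 0.101, 0.0503 and 0.0624) and with library size as the only scaling (0.0558, where 7.45% of all genes passed). The log2 fold change was -1.22 without KO replicate 3 and stayed between -1.64 and -1.22 in all 14 alternatives. Macrophages and dendritic cells also express Dnase1l3. The summed level of 12 Kupffer cell markers was 2630 to 3194 CPM in KO and 1302 to 2617 CPM in WT, and that of 6 dendritic cell markers 6.25 to 11.8 CPM in KO and 6.63 to 19.9 CPM in WT. Their part in the Dnase1l3 difference was not tested.

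Oit3 encodes a secreted protein with a zona pellucida domain. It was at 35.1, 31.5 and 13.4 CPM in KO replicates 1 to 3 and at 38.8, 46.5 and 34.6 CPM in WT replicates 1 to 3. KO replicate 1 lay within the WT range and KO replicate 3 far below it. The log2 fold change of -0.58 (SE 0.34) did not pass (edgeR adjusted p = 0.323) and was -0.26 without KO replicate 3.

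Lyve1, a receptor for the matrix glycan hyaluronan found on sinusoidal and lymphatic endothelium and on some macrophages, went against the other markers. It lies on chromosome 7 from 110850607 to 110863239 (mm10). Its level was 33.9, 28.5 and 18.5 CPM in KO replicates 1 to 3 and 17.4, 8.95 and 18.3 CPM in WT replicates 1 to 3. All KO libraries were above all WT libraries, but KO replicate 3 and WT replicate 3 were almost level, and WT replicate 2 was the lowest of the 6. The means were 27.0 ± 7.84 and 14.9 ± 5.16 CPM (SD, n = 3 each), a 1.81-fold difference (log2 fold change 0.86, SE 0.32) that did not pass (unadjusted p = 0.0311, edgeR adjusted p = 0.151). The log2 value was 1.07 without KO replicate 3 and ran from 0.60 to 1.07 over the 14 alternatives, with adjusted p from 0.0748 to 0.364.

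Macrophage markers were mostly but not all higher in KO, and which of these macrophages carry Lyve1 cannot be seen in whole-liver RNA. Of 12 Kupffer cell markers 9 had a positive log2 fold change and 3 a negative one (median 0.49, and 0.44 without KO replicate 3). Without overlap were 4 higher and 1 lower. Of 8 markers of recruited and lipid-associated macrophages 6 were positive and 2 negative (median 1.20, and 1.33 without KO replicate 3). Without overlap were 5 higher and 0 lower. Over all genes 16.9% were higher and 16.6% lower without overlap. Of the 12 Kupffer cell markers 2 passed as higher and 0 as lower, where 3.36% of all genes passed as higher. They were the receptors Clec4f (1.85-fold, edgeR adjusted p = 0.0352) and Vsig4 (1.76-fold, adjusted p = 0.0463), and neither passed without KO replicate 3. Cd5l had no overlap, higher in KO, and did not pass (log2 fold change 1.01, edgeR adjusted p = 0.0826). The scavenger receptor Cd163 had no overlap in the other direction and did not pass (log2 fold change -1.36, edgeR adjusted p = 0.143), and Timd4 and Marco were also negative (-0.52 and -0.07, with Marco at 0.10 with library size only). Of the 8 recruited and lipid-associated macrophage markers 3 passed as higher, Cd9, Lpl and Trem2 (1 without KO replicate 3, where 0.99% of all genes passed as higher). Gpnmb had no overlap, higher in KO, and did not pass (log2 fold change 2.94, edgeR adjusted p = 0.0896). The monocyte genes Ly6c2 and Ccr2 of that list were negative and did not pass (-1.53 and -0.13 on the log2 scale, edgeR adjusted p = 0.256 and 0.901), with Ccr2 at 0.06 with library size only. The summed level of the 8, most of it from Lpl and Gpnmb, was 693 to 814 CPM in KO and 105 to 314 CPM in WT. Both lists hold genes that other liver cells also express. Of 6 lymphatic genes Ccl21a was at 0 counts in every library, Pdpn was too low to test, and 0 of the 4 tested passed with edgeR (2 at an unadjusted p under 0.05, as had 25.8% of all genes, and 0 with DESeq2 and with limma-voom). Those 2 had no overlap, Reln higher and Flt4 lower in KO (log2 fold changes of 0.46 and -0.70). Flt4 is also on the list of other sinusoidal genes, so this list is not of lymphatic endothelium alone. The part of macrophages and lymphatic endothelium in the Lyve1 difference was not tested.

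Stab1 and Stab2 encode the stabilins, large scavenger receptors, of which Stab2 clears hyaluronan and both take up modified proteins. Stab1 was at 79.5, 72.0 and 35.2 CPM in KO replicates 1 to 3 and at 77.2, 81.0 and 59.0 CPM in WT replicates 1 to 3. Stab2 was at 71.4, 56.5 and 38.8 CPM in KO and at 61.5, 83.4 and 52.3 CPM in WT, in the same order of replicates. For both genes the first and second KO libraries lay inside the WT range and KO replicate 3 below it. The log2 fold changes of -0.22 (SE 0.30) and -0.24 (SE 0.26) did not pass (edgeR adjusted p = 0.684 and 0.591). Without KO replicate 3 they were 0.07 and -0.04 on that scale. With library size only they were 0.02 and 0.00, in a scaling that moved the median of all genes up by 0.21.

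Clec4g encodes a C-type lectin of sinusoidal endothelium, also known as LSECtin, that binds glycans. It was at 63.7, 51.6 and 25.2 CPM in KO replicates 1 to 3 and at 90.7, 92.9 and 67.4 CPM in WT replicates 1 to 3. The groups did not overlap, by a small margin between KO replicate 1 and WT replicate 3. The log2 fold change was -0.84 (SE 0.32; unadjusted p = 0.0357, edgeR adjusted p = 0.161), was -0.54 without KO replicate 3, and passed in none of the 14 alternatives.

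Fcgr2b encodes an inhibitory receptor for IgG, through which sinusoidal cells take up immune complexes, and which B cells and macrophages also carry. It was at 51.0, 49.5 and 21.1 CPM in KO replicates 1 to 3 and at 63.0, 58.3 and 42.6 CPM in WT replicates 1 to 3. Again the first and second KO libraries lay inside the WT range. The log2 fold change of -0.43 (SE 0.33, edgeR adjusted p = 0.460) was -0.12 without KO replicate 3.

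Kdr encodes the main VEGF receptor of endothelium. It was at 55.1, 47.7 and 17.4 CPM in KO replicates 1 to 3 and at 61.1, 84.2 and 50.2 CPM in WT replicates 1 to 3. It had the deepest drop in KO replicate 3 of the 10 markers, to 33.9% of the mean of the other KO libraries. The log2 fold change was -0.70 (SE 0.41, edgeR adjusted p = 0.328), and -0.34 without KO replicate 3.

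Gpr182, an atypical chemokine receptor, was at 28.1, 23.9 and 11.7 CPM in KO replicates 1 to 3 and at 33.4, 39.8 and 22.8 CPM in WT replicates 1 to 3. Pecam1, an adhesion molecule of all endothelium and of platelets and leukocytes, was at 36.0, 31.1 and 17.8 CPM in KO and at 44.1, 38.9 and 37.8 CPM in WT. Only Pecam1 showed no overlap between the genotypes, with KO replicate 1 close under WT replicate 3. Neither passed: the log2 fold changes were -0.59 (SE 0.34) and -0.51 (SE 0.24), with edgeR adjusted p of 0.323 and 0.240, and were -0.30 and -0.26 without KO replicate 3.

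Levels can be compared between genes only per length, here as CPM per kilobase of exon (all annotated exons of the gene in GENCODE release M21, which understates genes with long rare transcripts). In WT, Clec4g was the most abundant marker at 34.0 ± 5.75 CPM per kilobase (SD, n = 3), and its libraries did not overlap those of Dnase1l3 at 19.6 ± 4.51. Dnase1l3 overlapped with Oit3 at 14.3 ± 2.17, which lay above Fcgr2b at 9.44 ± 1.84 with no overlap. From Fcgr2b down to Lyve1 at 5.10 ± 1.77, neighbours in the order overlapped. In KO, Clec4g was still the highest at a mean of 19.0 CPM per kilobase (10.2 to 25.9), Oit3 followed at 9.57 ± 4.17 and Lyve1 at 9.24 ± 2.69, and Dnase1l3 came next at 7.11 ± 2.30. Lyve1 thus went from the lowest of the 10 in WT to the third highest in KO, and Dnase1l3 from the second to the fourth, but in KO the libraries of neighbours in the order overlapped throughout, Clec4g with Oit3 and Lyve1 included, and Dnase1l3 was all but level with Fcgr2b, which came next.

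Ratios between markers of the same library do not depend on scaling factors. The ratio of Lyve1 counts to Dnase1l3 counts was 0.747, 0.690 and 0.799 in KO replicates 1 to 3 and 0.138, 0.0911 and 0.231 in WT replicates 1 to 3. All KO libraries lay near one value, KO replicate 3 included, and far above all WT libraries. This pair was chosen after its values were seen and is given with no test. Dnase1l3 to Stab2 was 0.654 ± 0.0686 in KO and 1.58 ± 0.435 in WT (SD, n = 3 each). By contrast, Stab1 to Stab2 was 1.10 ± 0.185 in KO and 1.12 ± 0.142 in WT, a difference far below the spread between libraries.

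The markers were also set against the geometric mean of 25 genes of endothelium in most vessels, such as Cdh5, Eng and Tie1. That mean was 11.0, 9.88 and 5.09 CPM in KO replicates 1 to 3 and 12.3, 10.8 and 10.2 CPM in WT replicates 1 to 3. Relative to it, Lyve1 was 2.49-fold higher in KO, with log2 ratios of 1.63, 1.53 and 1.86 against 0.50, -0.27 and 0.84. Dnase1l3 was 2.09-fold lower, with log2 ratios of 2.05, 2.06 and 2.18 in KO against 3.35, 3.18 and 2.96 in WT. On this scale KO replicate 3 was at least as far from WT for Lyve1 as the other KO libraries, and the Dnase1l3 values of the KO libraries lay within a narrow band. Clec4g was 1.41-fold lower and Pecam1 1.10-fold lower, both with no overlap, and the other 6 overlapped, with differences between -0.40 for Kdr and 0.17 for Stab2 on the log2 scale. An exact two-sided permutation test gave p = 0.1 for each of the 4 markers with no overlap, which is the smallest p that 3 against 3 libraries allow, so none could pass.

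**Figure D2:**
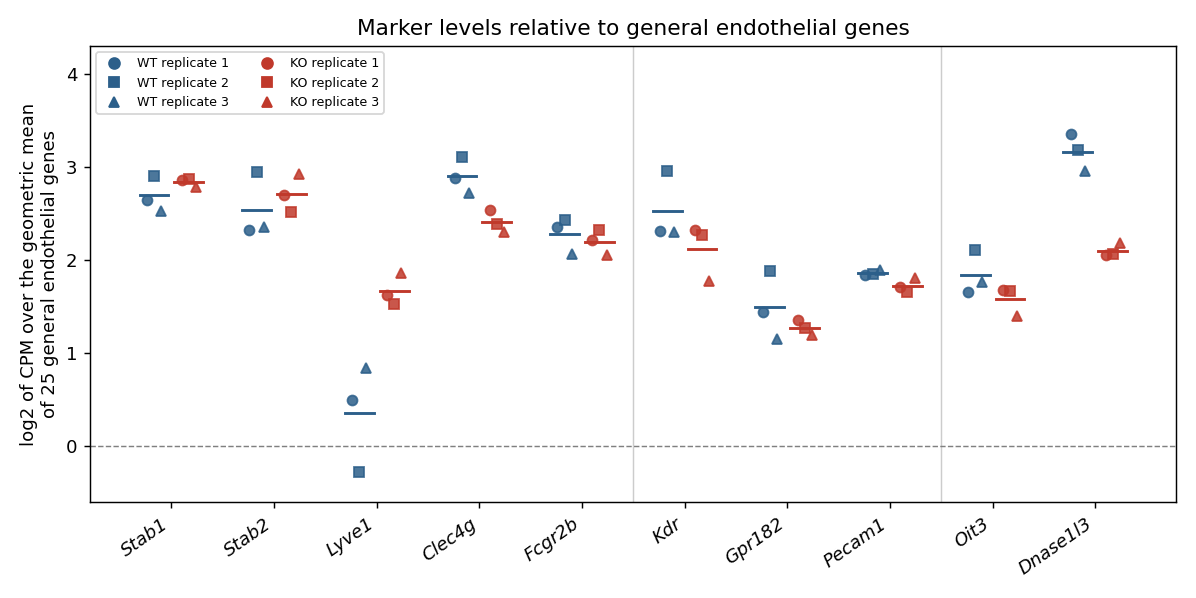
Log2 ratio of each marker's CPM to the geometric mean CPM of 25 general endothelial genes in the same library, with 1 point per library, WT in blue, KO in red and a bar at the group mean. The KO points of Lyve1 (1.53 to 1.86) lie above and those of Dnase1l3 (2.05 to 2.18) below all WT points, and the red triangles of KO replicate 3 sit with the other KO libraries for these genes.

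The general endothelial genes themselves had a median log2 fold change of -0.43, with 21 of 25 negative. Without overlap were 8 lower and 0 higher (16.6% and 16.9% of all genes). None passed with edgeR or limma-voom (6.94% and 6.7% of all genes), 3 had an unadjusted p under 0.05 (25.8% of all genes), and 1, the sphingosine phosphate receptor S1pr1, passed with DESeq2 (15.3% of all genes). S1pr1 was at 31.9 ± 6.46 CPM in KO and 49.2 ± 6.71 CPM in WT (SD, n = 3 each, edgeR adjusted p = 0.0796). Its log2 fold change was -0.62, and -0.74 without KO replicate 3. The junction genes Esam and Cldn5 and the secreted angiogenic factor gene Egfl7 came next in order of p, with log2 fold changes of -0.54, -0.74 and -0.74 (edgeR adjusted p = 0.134, 0.196 and 0.171), or -0.36, -0.43 and -0.49 without KO replicate 3. In KO replicate 3, 23 of the 25 had their lowest level. The median was -0.15 without that library.

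**Figure D3:**
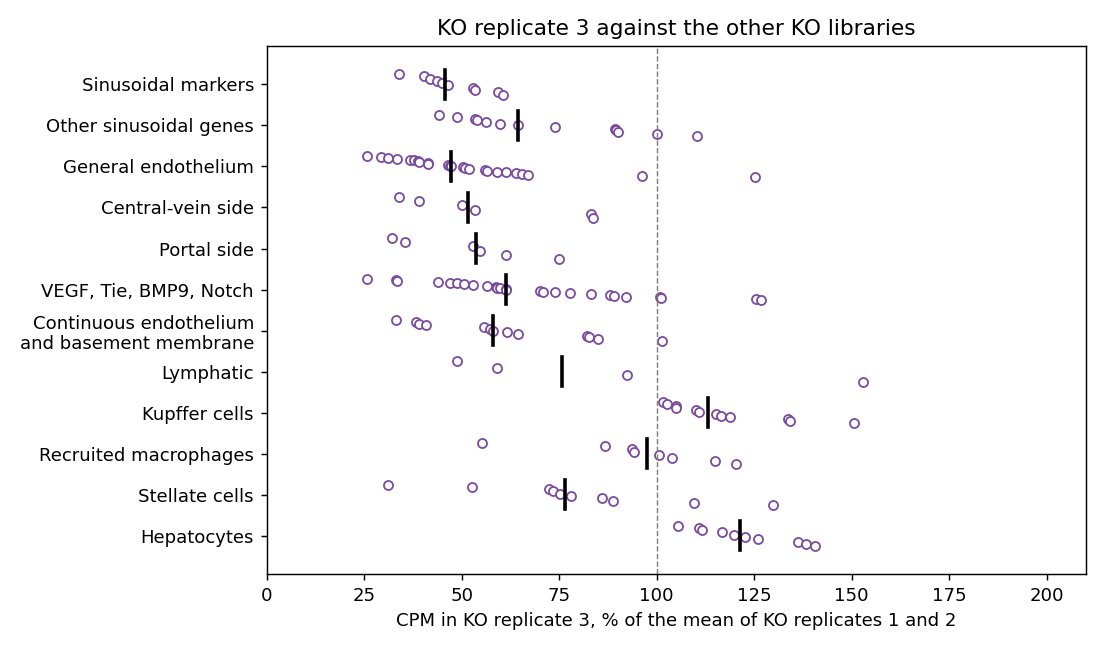
CPM in KO replicate 3 as a percentage of the mean of KO replicates 1 and 2, with 1 circle per tested gene and a bar at the median of each list. The sinusoidal markers (median 45.7%) and general endothelial genes (median 47.3%) lie to the left of 100%, while the Kupffer cell (113%) and hepatocyte (121%) medians lie to the right.

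Of 13 tested genes from a list of other sinusoidal genes, 0 passed with edgeR or limma-voom (3 at an unadjusted p under 0.05 and 1 with DESeq2, against 25.8% and 15.3% of all genes). Their median log2 fold change was -0.02, and 0.12 without KO replicate 3. With library size only it was 0.21, level with the median of all genes there. Gata4 was at 20.0 ± 5.57 CPM in KO and 20.1 ± 0.881 CPM in WT, and Maf, another transcription factor of these cells, at 23.2 ± 1.59 and 23.4 ± 3.83 CPM (SD, n = 3 each). These differences were within the spread between libraries. Bmp2, a secreted signal to hepatocytes that induces hepcidin, was at 16.6 ± 4.91 CPM in KO and 27.6 ± 6.29 CPM in WT, and the VEGF-C receptor Flt4 at 30.1 ± 11.4 and 49.0 ± 6.41 CPM (SD, n = 3 each). Both were lower in KO with no overlap between groups and did not pass (edgeR adjusted p = 0.139 and 0.174). Of the 13, 2 were lower and 2 higher without overlap, Cd36 among the higher (16.6% and 16.9% of all genes). The coagulation factor gene F8 had an adjusted p of 0.204 (log2 fold change -0.77). Without KO replicate 3 the log2 values of Flt4 and F8 were -0.43 and -0.47. The fatty acid transporter Cd36, which hepatocytes and macrophages also express, was at 160 ± 20.2 CPM in KO and 76.3 ± 38.3 CPM in WT (edgeR adjusted p = 0.143).

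Endothelial genes of the central vein side were all on the negative side, 6 of 6, with a median log2 fold change of -0.87 (-0.56 without KO replicate 3), though Rspo3 turned from -0.21 to 0.01 with library size only. With edgeR and limma-voom 0 passed, while 3 of 6 had an unadjusted p under 0.05 (25.8% of all genes) and DESeq2 called 2 (15.3% of all genes). The signal protein gene Wnt2, which maintains pericentral hepatocytes, was at 3.59 ± 1.27 CPM in KO and 6.79 ± 0.699 CPM in WT (SD, n = 3 each; edgeR adjusted p = 0.106), and Wnt9b at 0.928 ± 0.341 and 2.43 ± 1.25 CPM (adjusted p = 0.131). The cadherin gene Cdh13 was at 1.23 ± 0.557 and 2.80 ± 0.0663 CPM (edgeR adjusted p = 0.117). The receptor tyrosine kinase gene Kit had a log2 fold change of -0.82 (adjusted p = 0.253), and -0.46 without KO replicate 3. Of 6 genes of the portal side, 3 were negative and 3 positive, the median was 0.07 (0.35 without KO replicate 3), and 0 passed with edgeR, DESeq2 or limma-voom, with 0 at an unadjusted p under 0.05.

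In a list of 26 tested genes of VEGF, angiopoietin, BMP9 and Notch signalling, 1 fell and 1 rose, where 6.94% of all genes passed. Nrp1, a co-receptor that enhances VEGF signalling through Kdr, was at 66.0, 49.7 and 45.1 CPM in KO replicates 1 to 3 and at 118, 124 and 111 CPM in WT replicates 1 to 3. The groups were far apart, and Nrp1 fell 2.19-fold (edgeR adjusted p = 0.0119; the log2 fold change was -1.13 with an SE of 0.16). It passed in 13 of the 14 alternatives and had an adjusted p of 0.0746 without KO replicate 2. Id1, a target of BMP signalling, was at 25.4 ± 7.73 CPM in KO and 6.36 ± 3.01 CPM in WT (SD, n = 3 each), a rise of 3.98-fold with an edgeR adjusted p of 0.0348. Its call was lost when KO replicate 1, 2 or 3 or WT replicate 3 was left out, at an adjusted p of at most 0.108. Both genes are also expressed outside endothelium. Id3, another BMP target, and Hey1, a Notch target, had no overlap between groups and did not pass, with log2 fold changes of 1.08 and 1.37 (edgeR adjusted p = 0.0645 and 0.0758). Of the 26, 3 were higher in KO without overlap, these and Id1, and 7 were lower, Nrp1 among them (16.9% and 16.6% of all genes). In this list 14 were negative and 12 positive (median -0.12, and 0.06 without KO replicate 3). The ligand gene Vegfa was at 35.5, 53.9 and 39.8 CPM in KO and at 42.5, 54.0 and 46.3 CPM in WT, with overlapping groups (edgeR adjusted p = 0.648).

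A list of genes of continuous endothelium and its basement membrane, several of which are known to rise in capillarisation, had a median log2 fold change of 0.63 (0.90 without KO replicate 3), and 3 of 13 tested genes rose and 0 fell (3.36% of all genes passed as higher). They were Nid1, a basement membrane nidogen (3.66-fold, edgeR adjusted p = 0.0261), Lamb1, a laminin chain (1.76-fold, adjusted p = 0.0226), and Esm1, a proteoglycan of activated endothelium (4.26-fold, adjusted p = 0.0332). In this list 7 had an unadjusted p under 0.05 (25.8% of all genes), DESeq2 called 6 (15.3% of all genes) and limma-voom 3 (6.7%). KO and WT libraries did not overlap for 7, Plvap among them, all higher in KO (16.9% of all genes). Nid1 was at 220, 159 and 157 CPM in KO replicates 1 to 3 and at 64.2, 25.6 and 56.6 CPM in WT replicates 1 to 3. Esm1 was low in level, at 4.23, 3.43 and 2.20 CPM in KO and 0.419, 0.872 and 1.01 CPM in WT. Without KO replicate 3 only Lamb1 passed (edgeR adjusted p = 0.0490), where 0.99% of all genes passed as higher. Without KO replicate 1 or 2 or WT replicate 3 none of these 3 genes passed. Those fits called 295, 101 and 292 of all genes, against 898 with every library. With library size only 5 of the 13 passed, all as higher. That scaling called 707 genes as higher and 258 as lower, and moved the median of all genes up by 0.21. Ackr1, a chemokine receptor of venules, was at 2.70 ± 0.815 CPM in KO and 0.807 ± 0.291 CPM in WT (edgeR adjusted p = 0.0511), and Cd34, a marker of continuous endothelium, at 8.30 ± 4.15 and 3.51 ± 1.59 CPM (adjusted p = 0.155). Plvap, which forms the diaphragms of fenestrae in other organs, was at 117 ± 1.08 and 96.0 ± 18.1 CPM (SD, n = 3 each; edgeR adjusted p = 0.273). Of the 13, 3 had a negative log2 fold change, Vwf (-0.53), Cav1 (-0.86) and Lama4 (-0.11), and none passed (edgeR adjusted p = 0.373, 0.260 and 0.900), while Lama4 was 0.25 without KO replicate 3 and 0.14 with library size only. Stellate cells also make basement membrane proteins. The summed level of 10 stellate cell markers was 430 to 497 CPM in KO and 274 to 350 CPM in WT. All 10 had a positive log2 fold change (median 0.32, and 0.43 without KO replicate 3), and 5 had no overlap (16.9% of all genes were higher without overlap). Of them 1 passed, decorin (Dcn), 1.66-fold higher (edgeR adjusted p = 0.0413), where 3.36% of all genes passed as higher. Without KO replicate 3 Dcn did not pass (edgeR adjusted p = 0.0901). In that fit 1 did, Acta2 (log2 fold change 1.88, edgeR adjusted p = 0.0363), where 0.99% of all genes passed as higher. The part of stellate cells in the rise of Nid1 and Lamb1 was not tested.

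**Figure D4:**
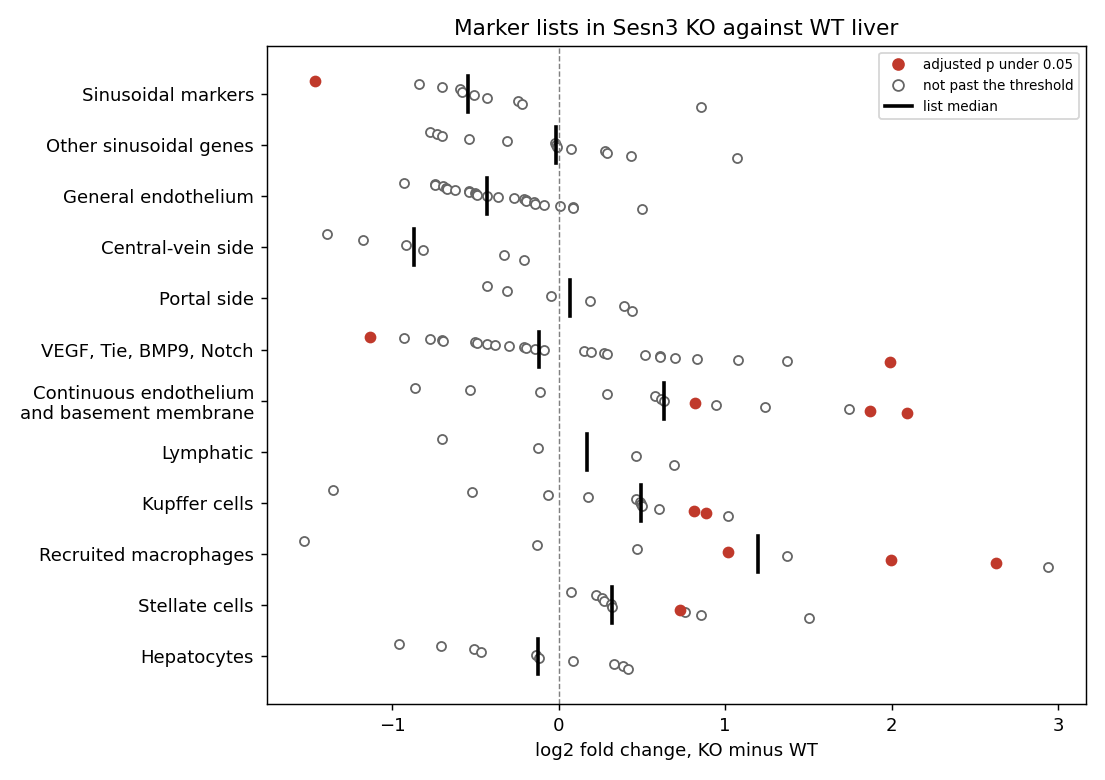
Log2 fold change of KO minus WT for each tested gene of 12 lists, with filled red circles for genes with an edgeR adjusted p under 0.05, open circles for the others, a bar at the median of each list and a dashed line at the median of all tested genes. The sinusoidal markers lie mostly left of the line with Dnase1l3 filled at -1.47 and Lyve1 alone on the right at 0.86, and the basement membrane list lies mostly to the right.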

How the data were processed

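Livers were snap-frozen, Trizol was used for RNA, and TruSeq libraries were built from 1 µg each, per the labels' protocols. The deposited values are raw read counts, whole numbers with no normalisation by the authors, for 6 libraries by gene symbol. Per the submitters' processing notes, build mm10 was used with Subread 1.5.3, featureCounts, edgeR 3.20.8 and STAR 2.5. What each did, which annotation was used and the strand setting are not stated in the sources used here. Without strand, reads of genes that overlap on the opposite strand cannot be told apart. Exons of Stab1, Stab2, Clec4g, Fcgr2b and Gpr182 overlap exons of such a gene, over at most 155 bases for any single pair of exons. Overlaps were not summed over a gene.

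Groups follow the genotype label, and replicate numbers the accession order. No label names separate animals, so p-values measure the spread between libraries, which may be technical. The test was run in R 4.3.3 with edgeR 4.0.16, using filterByExpr (counts of at least 10, totals of at least 15), TMM scaling, robust glmQLFit and a two-sided quasi-likelihood F-test, and p-values of the 12945 genes that passed the filter were adjusted by the Benjamini-Hochberg method. An SE is the size of the log2 value over the square root of F. The code was tested on simulated data.

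The alternatives were other scaling (RLE, upper quartile, library size only), no filter, a filter of 1 CPM in 3 libraries, no robust dispersion, DESeq2 1.42.0, limma-voom (limma 3.58.1) and leaving out each library. The members and lists were chosen with earlier results of these data known. Named genes were Sesn3, the 10 markers and, from each other list of endothelium or signalling, up to 4 with the smallest p, and genes close to the markers in pattern. From lists of other cell types, genes are named only beside a marker or list. Gata4, Maf, Vegfa, Plvap, Cd34, Vwf, Cav1, Lama4, Timd4, Marco, Ly6c2, Ccr2, Ccl21a and Pdpn were added after their values were seen. Gene positions and lengths are from GENCODE release M21 (GRCm38, the assembly of mm10), matched by symbol for all 10.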

Additional observations from a re-analysis of the deposited data

How the results depend on the processing

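The call of Dnase1l3, the only marker past the threshold, held with RLE and upper-quartile factors, both other filters, no robust dispersion, DESeq2, limma-voom and without WT replicate 1 or 2. With library size only, 0 of the 10 markers passed, and leaving out 1 library at a time gave 0 to 1. Over all genes 898 passed, 101 to 962 without 1 library and 1982 with DESeq2. With library size only 707 were higher and 258 lower (435 and 463 with TMM), and the median of all genes shifted by 0.21 on the log2 scale. The direction turned for Stab1 with library size only (0.023, log2) and without KO replicate 3 (0.065, in a range of -0.42 to 0.065 without 1 library), and for Stab2 with library size only (0.0021). Both library size values lay below that shift of all genes, and Stab2 was negative in the other 13 alternatives. The cause of the Stab1 change without KO replicate 3 was not tested. The other 8 markers kept their direction in all 14 alternatives. No paired analysis was possible because the labels give the libraries no replicate numbers that the groups share. With 3 libraries a group, the standard errors of the markers that did not pass (0.24 to 0.41, log2) leave differences of that size undetectable. Larger ones also did not pass, such as 0.86 for Lyve1 and -0.84 for Clec4g, each with an SE of 0.32.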

Other observations

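Genes outside the 10 markers whose log2 CPM over the 6 libraries was most like the mean standardised profile of the markers, among 12097 genes with a mean of at least 1 CPM, were Sema6a, a semaphorin, Robo4, an endothelial guidance receptor, Tspan2, a tetraspanin, Atp2b4, a calcium pump, and Olfm1, an olfactomedin. All of them share the low values of KO replicate 3, which follows from their choice by likeness to the markers over the same libraries. Robo4 is also one of the 25 general endothelial genes. Sema6a was at 6.13, 5.09 and 1.94 CPM in KO replicates 1 to 3 and at 7.69, 8.08 and 5.45 CPM in WT replicates 1 to 3. None of these 5 passed the test of KO against WT with edgeR (adjusted p from 0.294 to 0.521).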
